A study of Mus musculus with 36 samples.

Results

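The inguinal white fat (iWAT), a depot under the skin of the groin, was compared between calorie-restricted (CR) mice and mice fed ad libitum (AL). The comparison rests on 12 of the 36 RNA-seq libraries of the study, 6 of CR iWAT and 6 of AL iWAT, chosen by the diet and tissue that the labels give. All mice were C57BL/6J, an inbred strain, and had been on their diet for 16 weeks; no group carries a transgene, a mutation or a drug. The size of the calorie restriction, the sex and age of the mice and the hour of sampling are not stated in the labels used here, so the time since the last meal cannot be told apart from the diet. A time-restricted group (TR, without calorie restriction, 6 libraries of iWAT) and the livers of the CR and AL mice (6 libraries each) are used only where a difference from them is given. The adipocyte marker genes Adipoq, Plin1, Fabp4 and Lep were all in the table of iWAT, and for the 8 of 15 adipocyte markers in both tables, abundance in liver minus that in iWAT had a median of -7.49 log2 units.

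White fat cells store fatty acids as triglyceride, which they take from the blood or make from glucose through acetyl-CoA, and release them again by lipolysis. Some cells of the inguinal depot can turn into beige adipocytes, which carry many mitochondria and burn fuel as heat through uncoupling protein and creatine cycles. The cells sit in a matrix of collagens and glycoproteins made by fibroblast-like progenitors, among vessels, nerves, macrophages and lymphocytes, and the depot lies next to a lymph node, mammary epithelium and body wall muscle.

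Values are the authors' comparisons of whole groups: for each gene the authors' deposited table of CR against AL gives a log2 fold change, a log2 mean CPM (abundance over both groups, scaled to the size of each library) and an adjusted p from edgeR. All fold changes below are log2 values from that table, written as CR minus AL unless said otherwise, so 1 unit is a 2-fold difference. Values of single libraries are not in the table, so no level per mouse, no spread within a group and no overlap of the groups can be given, and the depth is unknown. A gene is said to have risen or fallen only where the authors' adjusted p, the false discovery rate (FDR), was under 0.05. Of 15295 genes in the authors' deposited table, 1117 (7.3%) passed, 539 higher in CR (3.52%) and 578 lower (3.78%), and the median over all genes was 0.02. The approximate standard error (SE), taken from each fold change and its likelihood-ratio statistic, had a median of 0.32, ranging from 0.66 for genes with a log2 mean CPM under 0 to 0.24 for those of at least 6. The smallest change that passed was 0.63 in size, and whether a change passed also depended on the SE of its gene. In bulk tissue, fewer cells of a type and less RNA per cell cannot be told apart.

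**Figure D1:**
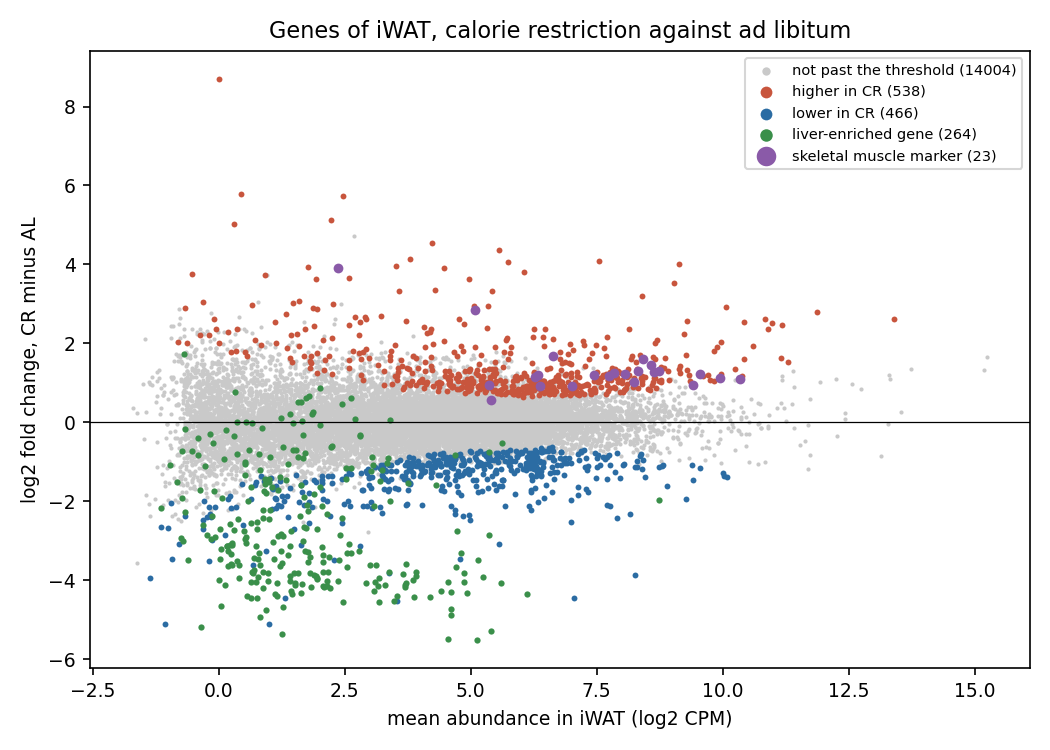
Each point is a gene of iWAT, with its log2 mean CPM on the x axis and its log2 fold change (CR minus AL) on the y axis; red and blue points passed the authors' FDR of 0.05, and green and purple points are liver-enriched genes and skeletal muscle markers, whether or not they passed. The 264 liver-enriched genes lie mostly below 0, and all 23 muscle markers lie above it.

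Transcripts of hepatocytes differed between these samples, and skeletal muscle markers lay above 0 with wide errors. Both are set apart from the programs of fat. Of 22 hepatocyte markers measured in iWAT, 18 fell, with a median of -3.80 beside 0.02 over all genes in the authors' deposited table. They include the fibrinogen chains Fga, Fgb and Fgg (-4.39, -4.12 and -4.13 in the authors' deposited table), the apolipoprotein Apoa1 (-4.33) and the urea cycle enzyme Cps1 (-4.43). Albumin (Alb) had -1.96 (adjusted p = 0.12, edgeR). A wider class, genes whose log2 mean CPM in the liver table exceeded that in the iWAT table by at least 5, held 264 genes, of which 112 fell and 0 rose, with a median of -3.01. These 112 genes make up 19.4% of all genes lower in CR. The share of genes that fell was 58.7% where the liver exceeded iWAT by 7 or more, 19.3% between 5 and 7, and 5.82% between 3 and 5. It was 3.45% between 1 and 3, 0.978% between 0 and 1, and 1.30% between -2 and 0. Where iWAT exceeded the liver by more than 2, 7.96% of 2186 genes fell, beside 3.78% over all genes.

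Against TR, most of these hepatocyte genes were lower in CR as well. Of 92 liver-enriched genes that fell and are listed for CR against TR in the authors' deposited table, 78 passed in that comparison too, all 78 lower in CR, where 0.918% of 14699 genes passed over all. The median CR minus TR value of the 92 was -5.71. Both comparisons share the CR libraries, so these counts are not independent of the fall against AL. In TR minus AL, Fga (2.56, adjusted p = 0.38), Cps1 (2.40, 0.39) and Alb (2.92, 0.078) stood above 0 without passing in edgeR. Without liver-enriched genes and muscle markers, 1004 of 15008 genes passed, 538 higher and 466 lower, at the authors' FDR. Every skeletal muscle marker measured, 23 of 23, had a fold change above 0, with a median of 1.21 and a median SE of 1.37, and 1 passed: Tnnt1, the slow skeletal troponin T, at 3.91 (adjusted p = 0.013, edgeR). Tnnc1, the slow muscle and heart troponin C and no member of the marker list, rose by 5.13 in the authors' deposited table. Tnnc1 rose in TR minus AL of iWAT too, by 3.33 (adjusted p = 4.9e-06, edgeR), where Tnnt1 stood at -0.02. In the liver, the CR minus AL value of Tnnc1 was 2.60 (adjusted p = 2.9e-13, edgeR). Whether Tnnc1 belongs with the muscle transcripts here was not tested. The part of these transcripts in the results below was not tested, and the difference between liver and iWAT abundance is given beside some genes that hepatocytes also make.

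**Figure D2:**
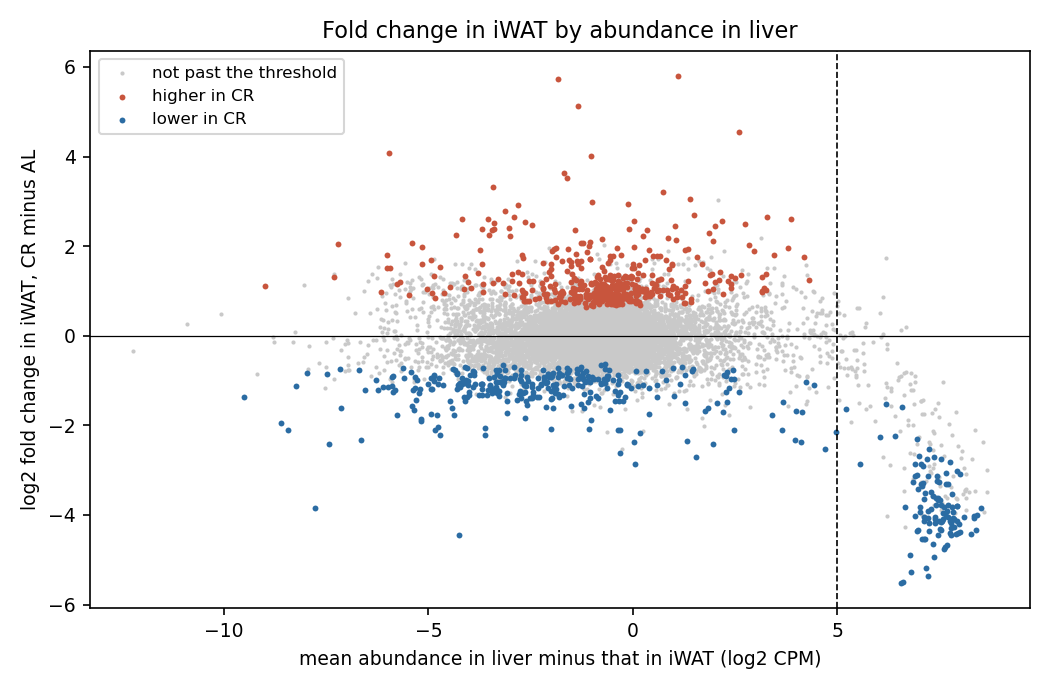
Each point is a gene measured in both tissues; the x axis is its log2 mean CPM in liver minus that in iWAT, the y axis its log2 fold change in iWAT (CR minus AL), and the dashed line marks the difference of 5 that defines liver-enriched genes. Right of the line 112 of 264 genes passed as lower in CR and 0 as higher.

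Among genes that are neither liver-enriched nor muscle markers, most of the 12 highest and 12 lowest fold changes at a log2 mean CPM of at least 2 are named here. Beside Pdzk1ip1, Elovl3, Ucp1, Cidea and Elovl6, the 12 highest held Hephl1, a copper-dependent ferroxidase, at 4.38 (SE 0.51), and Tmem79, a membrane protein known from skin barrier, at 4.07 (SE 0.50) in the authors' deposited table. Sorcs2, a sortilin-family receptor, rose by 3.91 (SE 0.46). Ttc25, a gene of motile cilia, rose by 3.66, and the immunoglobulin constant gene Ighg2c by 3.97 with the widest SE among these 24 genes, 1.19; the copies of this immunoglobulin family share sequence, so its count is uncertain. Of the 12 lowest, Zim1 and Peg3 are imprinted zinc finger genes beside each other, at -4.54 (SE 0.53) and -4.44 (SE 0.45), and Mest, another imprinted gene, stood at -3.86 (SE 0.48). Slc5a7, the choline transporter of cholinergic cells, fell by 3.83 (SE 0.94) and Folh1, a folate hydrolase, by 3.50 (SE 0.67) in the authors' deposited table. Ccn5 and Sfrp5, both secreted modifiers of Wnt signalling, stood at -3.46 and -3.09, the transcription factor gene Klf14 at -3.12 and the coactivator Vgll3 at -2.48. The protease gene Adamts5 stood at -2.42 and the GABA receptor gene Gabrr2 at -2.56.

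**Figure D3:**
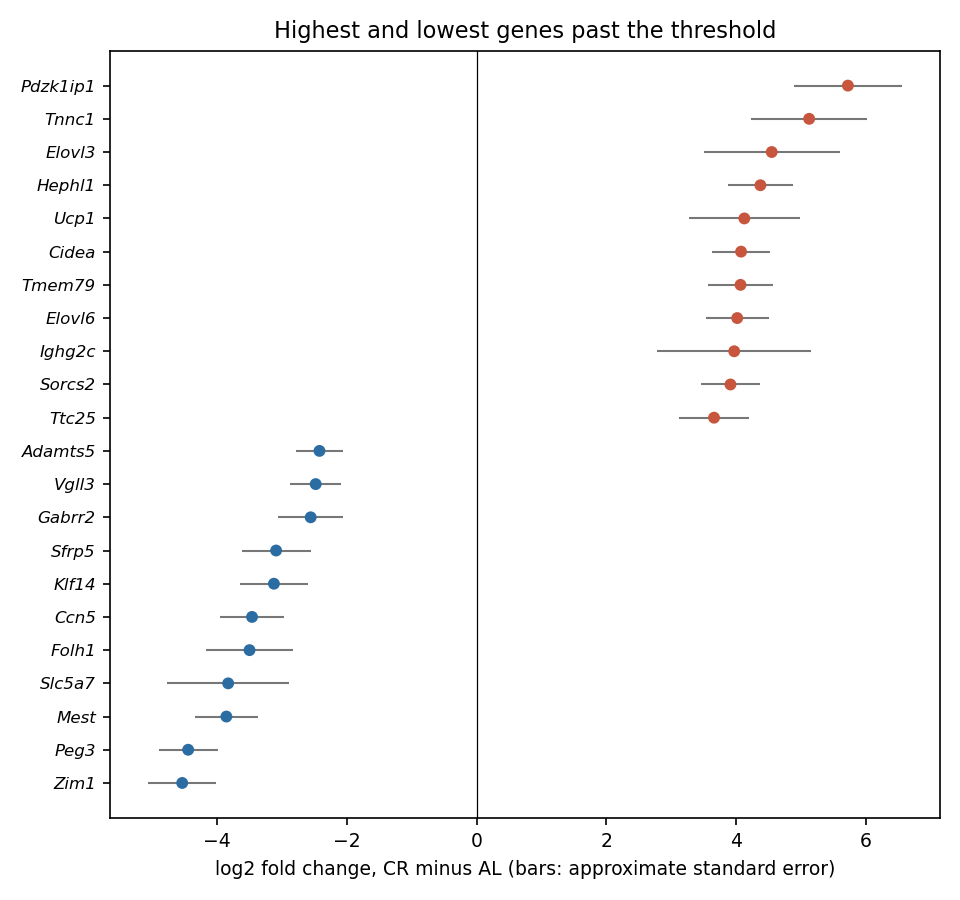
Genes from the 12 highest and 12 lowest past the authors' FDR at a log2 mean CPM of at least 2, without predicted genes, liver-enriched genes and muscle markers; points are log2 fold changes (CR minus AL) and bars the approximate SE. Pdzk1ip1 leads at 5.72, and Zim1, Peg3, Slc5a7 and Mest lie below -3.8.

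The enzymes that turn citrate into fatty acids rose in nearly every member. Of 14, 12 passed as higher and 0 as lower, with a median of 2.42. Acss2, which activates acetate, rose by 3.53 and the citrate carrier Slc25a1, which moves citrate out of mitochondria, by 2.91 (adjusted p = 5.6e-08, edgeR) and malic enzyme Me1, which yields NADPH, by 2.53 in the authors' deposited table. Acacb, the acetyl-CoA carboxylase of the mitochondrial surface, rose by 2.24, the desaturase Scd2 by 2.04 and Thrsp, a lipogenic nuclear protein, by 2.47. The 2 members that did not pass were Scd1, at 1.67 with an SE of 0.68 (adjusted p = 0.12, edgeR), and the desaturase Fads1, at 0.43. NADPH for this synthesis comes from the pentose phosphate pathway and malic enzyme, and 5 of 9 genes of that supply rose, with a median of 1.18: beside Me1 they were transketolase Tkt (2.61), Taldo1 (1.37), Pgd (1.34) and Rpia (1.18) in the authors' deposited table.

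Regulators and downstream steps of lipid storage rose in a minority of members, and 0 fell, where 3.52% of all genes rose. Of 12 lipogenic regulators, Insig1, which holds the SREBP proteins in the endoplasmic reticulum and is itself an SREBP target, rose by 2.56 (adjusted p = 1.3e-08, edgeR), and Mlx, the partner of ChREBP, by 1.12. Triglyceride assembly had 4 of 17 members higher, with a median of 0.37: Agpat2 at 2.55, Dgat1 at 1.15, Gpam at 1.02 and Agpat1 at 0.77 in the authors' deposited table. Dgat2, at 0.37, and the phosphatidate phosphatase Lpin1, at 1.06 with an adjusted p of 0.053 in edgeR, did not pass, nor did Pck1, which makes glycerol for re-esterification, at -0.60 (adjusted p = 0.44, edgeR). Of 14 genes of lipid uptake 2 rose, among them the fatty acid binding protein Fabp5 by 2.07. Lipoprotein lipase (Lpl) stood at 0.09, Cd36 at -0.56 and Fabp4 at 0.27 in the authors' deposited table, none past the threshold.

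Genes that lead glucose carbon to the mitochondria rose beside those of fatty acid synthesis. In glycolysis 13 of 19 members passed as higher and 0 as lower, with a median of 1.16, among them the phosphofructokinase Pfkl (1.42), pyruvate kinase Pkm (1.81), Pgk1 (1.35) and hexokinase Hk2 (1.31) in the authors' deposited table. For pyruvate entry and the TCA cycle the count was 25 of 31, with 0 lower and a median of 1.09. The carrier subunits Mpc1 and Mpc2, which bring pyruvate into mitochondria, rose by 2.00 and 1.26, and the pyruvate dehydrogenase subunits Dlat and Pdhb by 1.60 and 1.66 in the authors' deposited table. Pyruvate carboxylase Pcx, which feeds oxaloacetate to citrate, rose by 1.93, and the kinase Pdk1, which inhibits pyruvate dehydrogenase, by 1.79. Pdk4, the family member that is typically high in fasting, stood at 0.22 (adjusted p = 0.78, edgeR). Slc2a4, the insulin-regulated glucose transporter, rose by 1.12 and was the only gene of 22 on the insulin signalling list to pass. The breakdown of branched-chain amino acids had 5 of 23 members higher (Bckdk, Slc25a44, Mccc1, Pcca and Pccb, from 0.70 to 1.15 in the authors' deposited table), with a median of 0.34.

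Cholesterol synthesis rose in 16 of 23 members with 0 lower and a median of 1.30. The sterol dehydrogenase Nsdhl rose by 2.37 (adjusted p = 1.2e-15, edgeR), the mevalonate decarboxylase Mvd by 2.94, lanosterol synthase Lss by 2.17 and the last enzyme of the main route, Dhcr7, by 2.13 in the authors' deposited table. The synthase Hmgcs1, an entry step, stood at -0.29 (adjusted p = 0.64, edgeR) and did not pass. Srebf2, the gene of the sterol-sensing factor, stood at 0.52. On this list the liver exceeded iWAT by a median of 1.1 in log2 mean CPM, and 0 of its called members is liver-enriched.

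Promoters of the 11427 measured genes with a window were searched for short motifs. Of the genes that rose, 3 are shown because they belong to the sterol and citrate genes above and hold the E-box CACGTG. This E-box is the palindrome bound by SREBP, ChREBP with Mlx, USF and clock factors among others. The sequences are the 250 bases before the RefSeq start of each gene (GRCm38.p6), written 5′ to 3′ on the gene's strand, with the E-box in capitals. Insig1 is on the plus strand at chr5:28071162-28071411, Slc25a1 on the minus strand at chr16:17928220-17928469 and Dhcr7 on the plus strand at chr7:143823149-143823398.
Insig1: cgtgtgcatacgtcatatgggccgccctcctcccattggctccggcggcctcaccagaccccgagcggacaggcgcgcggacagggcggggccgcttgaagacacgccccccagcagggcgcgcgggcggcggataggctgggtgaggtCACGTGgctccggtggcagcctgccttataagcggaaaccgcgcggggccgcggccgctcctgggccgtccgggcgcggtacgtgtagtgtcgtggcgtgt
Slc25a1: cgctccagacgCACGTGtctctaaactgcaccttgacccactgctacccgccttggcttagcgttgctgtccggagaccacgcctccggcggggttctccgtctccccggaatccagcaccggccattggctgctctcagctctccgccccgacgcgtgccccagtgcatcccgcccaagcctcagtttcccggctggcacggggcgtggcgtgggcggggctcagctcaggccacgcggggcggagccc
Dhcr7: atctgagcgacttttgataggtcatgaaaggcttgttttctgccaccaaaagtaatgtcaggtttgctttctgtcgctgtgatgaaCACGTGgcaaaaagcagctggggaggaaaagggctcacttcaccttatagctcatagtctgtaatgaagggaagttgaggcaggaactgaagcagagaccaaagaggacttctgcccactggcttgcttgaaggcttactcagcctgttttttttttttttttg
The E-box starts 101 bases before the start of Insig1, 239 before that of Slc25a1 and 164 before that of Dhcr7. Over windows of 300 bases (250 before to 50 after the start), on both strands, 11.3% of 11427 measured genes with a window held CACGTG, beside 14.4% of 409 genes that rose and 5.88% of 425 that fell. Of the cholesterol synthesis list 4 of 16 windows held it, of the fatty acid synthesis list 2 of 11, of glycolysis 3 of 19, of pyruvate entry and the TCA cycle 4 of 27, and of the respiratory complexes 6 of 62 (9.68%). The cAMP response element TGACGTCA was in 3.26% of all windows, 4.16% of those higher and 1.65% of those lower. A sterol response element form, TCACNCCAC, was in 1.44%, 1.47% and 1.65%, and the ERR site TCAAGGTCA in 0.333%, 0.244% and 0.471%. These motifs were searched as exact letters; a window was counted for each motif it held, overlapping or not, and a match describes the letters, not binding.

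Mitochondrial fatty acid oxidation rose in 15 of 19 members with 0 lower, at a median of 1.03. The carnitine carrier Slc25a20 rose by 1.51 (adjusted p = 9.8e-07, edgeR), the muscle and brown fat form of carnitine palmitoyltransferase, Cpt1b, by 2.38 and Hadha, which pairs with Hadhb in the trifunctional protein, by 1.59 in the authors' deposited table. Cpt1a, the liver form of the same transferase, stood at -0.63 (adjusted p = 0.16, edgeR), and its liver abundance exceeded that of iWAT by 2.1 log2 units. Because Cpt1b is also a muscle gene, it stands beside the muscle markers above, whose median was 1.21. Of 25 peroxisomal genes, Pex16 rose by 1.26 and Pecr by 0.97, with a median of 0.39.

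Respiratory chain subunits encoded in the nucleus shifted by similar amounts. Of 36 subunits and factors of complex I, all had a fold change above 0 and 25 passed, with a median of 0.88 and a range from 0.39 to 1.27 in the authors' deposited table. Complexes II to V gave 27 of 38 higher and again none below 0, with a median of 1.02 and a range from 0.34 to 1.34. Ndufa10 rose by 1.27, the Rieske protein Uqcrfs1 by 1.22, Cox7b by 1.18 and cytochrome c1 (Cyc1) by 1.25 in the authors' deposited table. The 13 genes of the mitochondrial genome had a median of 0.86 but a wider median SE of 0.43, and 2 passed, mt-Co3 (1.33) and mt-Atp8 (1.26). Of 18 genes of mitochondrial biogenesis and dynamics 0 passed in edgeR (2 at an unadjusted p under 0.05), and 13 lay above 0 with a median of 0.16; a difference from the respiratory lists was not tested. The regulator Ppargc1a stood at 0.46 (adjusted p = 0.58, edgeR). Tfam stood at 0.14 and Nrf1 at 0.16. Muscle is rich in these transcripts too, and the muscle markers lay above 0 with a median SE of 1.37; their part in the mitochondrial shift was not tested.

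Thermogenic genes rose in 12 of 27 members, and 1, the beige determination factor Ebf2, fell (-0.90). Beside Ucp1, whose SE was 0.86, the thioesterase Acot11 rose by 3.62 (adjusted p = 4.4e-21, edgeR), the proton channel Otop1 by 2.56, the cytochrome oxidase subunit Cox8b by 2.09 and the thyroid hormone activating deiodinase Dio2 by 3.07 in the authors' deposited table. Cox7a1, a subunit of muscle and brown fat, rose by 2.25, and the potassium channel Kcnk3 by 1.11. Of 7 genes of the creatine cycle and related uncoupling, 0 rose and Gatm, which makes the creatine precursor, fell by 1.17.

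**Figure D4:**
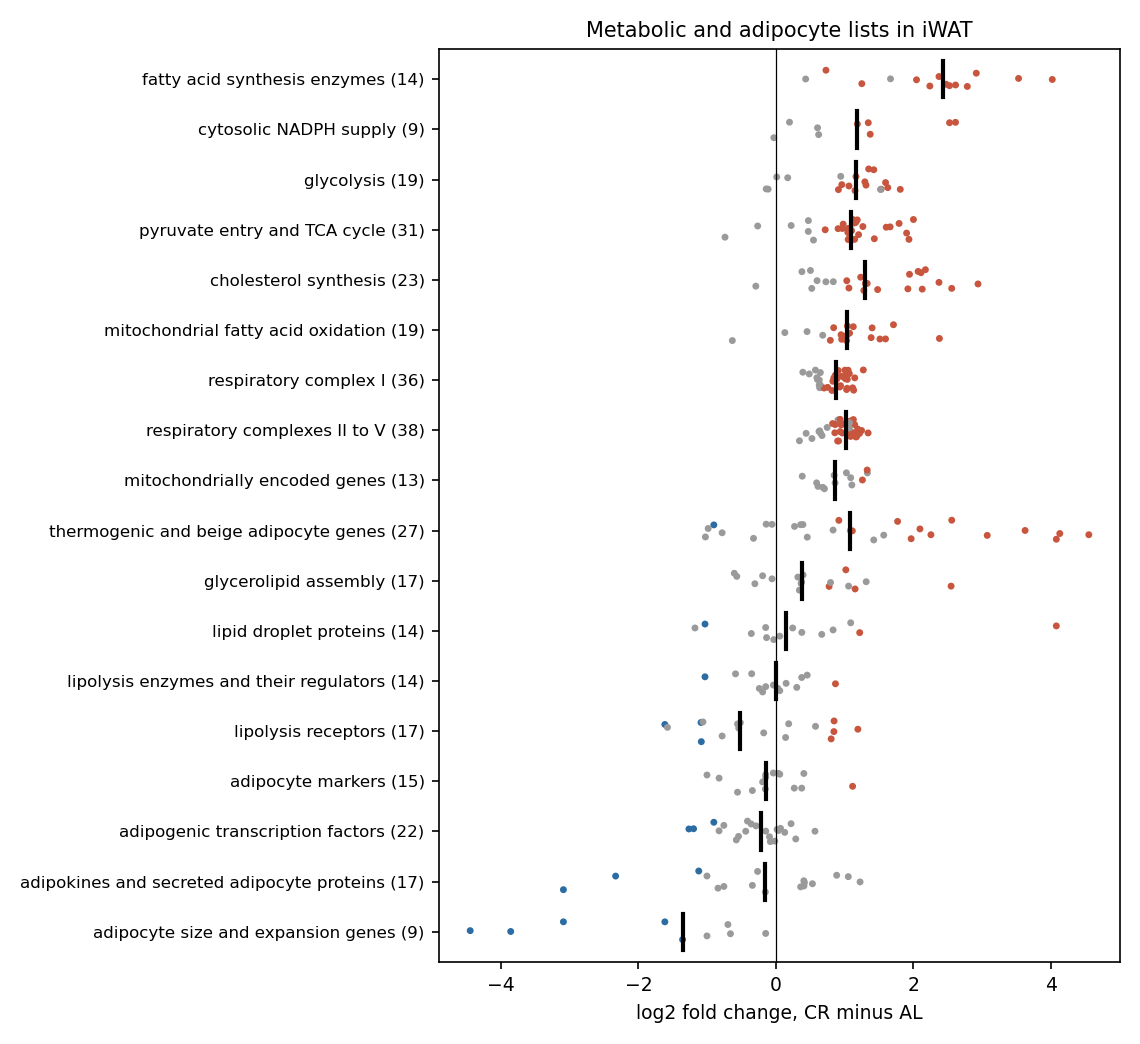
Each row is a gene list with its number of measured members; points are members at their log2 fold change (CR minus AL, x axis), red or blue where they passed the authors' FDR and grey where they did not, and black bars are the medians of the lists. Fatty acid synthesis has the highest median, 2.42, and the adipocyte markers sit around 0, at -0.15.

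General adipocyte identity genes stayed mostly short of the threshold. Of 15 adipocyte markers 1 rose (Slc2a4), with a median of -0.15. Adipoq, which encodes adiponectin, stood at -0.15 (95% interval about -1.02 to 0.71 from the approximate SE), Pparg, the master regulator of the fat cell, at 0.04 (-0.50 to 0.58) and Lep, which encodes leptin, at -1.002 (-1.86 to -0.15; adjusted p = 0.16, edgeR). Of 22 adipogenic transcription factors 3 fell: Ebf1 (-1.26), Klf4 (-1.20) and Ebf2. Of 17 adipokines 3 fell and 0 rose: Sfrp5, the angiotensin precursor Agt at -2.33 and chemerin (Rarres2) at -1.12 in the authors' deposited table. The liver exceeded iWAT by 4.0 for Agt, so it stands close to the hepatocyte class, and by 0.1 for Rarres2.

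Several genes tied to fat cell enlargement fell. Of 9 on the list, 5 passed as lower and 0 as higher, with a median of -1.36: Peg3, Mest, Sfrp5, the natriuretic peptide clearance receptor Npr3 (-1.61) and Bmp3 (-1.36). All 9 had fold changes below 0 in the authors' deposited table, where 3.78% of all genes fell. The 5 that passed are also counted on other lists here. Peg3 and Mest are on the imprinted list, and Sfrp5 on those of adipokines and Wnt signalling. Npr3 is on the list of lipolysis receptors, and Bmp3 on that of TGF-beta, BMP and activin signalling.

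Enzymes and regulators of lipolysis gave 1 call in each direction, where 7.3% of all genes passed. Adipose triglyceride lipase (Pnpla2) stood at 0.38 and hormone-sensitive lipase (Lipe) at -0.15, and of 14 enzymes and regulators Prkaca, the catalytic subunit of protein kinase A, rose by 0.87 and Hilpda, an inhibitor of the triglyceride lipase, fell by 1.03. The receptors that set lipolysis split in both directions, the antilipolytic ones included. Those of prostaglandin E2 (Ptger3, 1.19), adenosine (Adora1, 0.85), lactate (Hcar1, 0.80) and hydroxybutyrate (Hcar2, 0.84) rose in the authors' deposited table, whereas Npr3, the short-chain fatty acid receptor Ffar2 (-1.09), also known as antilipolytic, and the growth hormone receptor Ghr (-1.08) fell, 4 and 3 of 17. The call of Hcar2 was lost after centring on the median of all genes (adjusted p = 0.056) and after leaving out the other-tissue genes (adjusted p = 0.052), both from the deposited edgeR p-values. Adrb3, the main adrenergic receptor of mouse fat, stood at -0.78 (adjusted p = 0.15, edgeR). Of 14 lipid droplet proteins, Cidea and Plin2 (1.22) rose and Hilpda fell, and Cidec, which fuses droplets in white fat, stood at -0.15.

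Imprinted genes with roles in growth held several of the lowest values. Of 15 measured, 5 fell and 0 rose, with a median of -0.83: Peg3, Mest, Plagl1 (-2.06), Nnat (-1.17) and Peg10 (-1.37) in the authors' deposited table. The call of Peg10 was lost when other-tissue genes were left out (adjusted p = 0.05001, from the deposited edgeR p-values). H19 stood at 1.63 with an SE of 0.93, Igf2 at -0.71 and Cdkn1c at -0.88, none past the threshold. Peg3 and Zim1 lie next to each other on chromosome 7 (GRCm38, 6703892 to 6730431 and 6671269 to 6696450, both on the minus strand) and had about the same fold change. Around Mest (chromosome 6, 30723547 to 30748465), Klf14 at 30956023 to 30959078 fell by 3.12 and Cep41 by 1.07, whereas Copg2, which overlaps the end of Mest on the other strand, stood at -0.10 and Klhdc10 at 0.03. The neighbours of Peg10 (chromosome 6, from 4747306) stood at -0.44 for Sgce and -0.42 for the collagen gene Col1a2, and the neighbours of Plagl1 (chromosome 10, from 13060504) had adjusted p-values of 0.091 or more in the authors' edgeR table. Within 300 kb, the neighbours that fell were Zim1 beside Peg3 and Klf14 and Cep41 beside Mest, and none beside Plagl1 or Peg10. Whether the counting used strand is not stated in the labels used here, so reads of the overlapping ends of Mest and Copg2 cannot be told apart.

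In the stroma, genes of matrix glycoproteins, proteases and their inhibitors fell. Of 31 matrix glycoproteins and proteoglycans 10 fell and 0 rose, with a median of -0.83. Elastic fibre genes were among them, fibulin-5 (Fbln5) at -1.77 (adjusted p = 6.7e-09, edgeR), elastin (Eln) at -0.99 and fibrillin-1 (Fbn1) at -1.27, with the thrombospondins Thbs1 (-2.22) and Thbs2 (-2.03), Efemp1 (-1.34), the small proteoglycans Ogn (-1.66), Prelp (-1.47) and Dcn (-1.28), and Spp1 (-2.11) in the authors' deposited table. The liver exceeded iWAT by 2.5 log2 units in mean CPM for Spp1. Of 24 matrix proteases and inhibitors 7 fell, with a median of -0.90, among them the inhibitor Timp4 (-2.10, adjusted p = 1.4e-12 in edgeR), Adamts5, the membrane protease Mmp14 (-1.25), Mmp9 (-1.23), Mmp11 (-1.07) and Mmp12 (-2.11). Adam12, a membrane-bound metalloprotease, rose by 1.15 in the same table.

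Fibrillar collagens gave 1 of 10 lower, the low-abundance Col11a1 at -2.47, which is no longer tested at a log2 mean CPM of at least 1. All 10 had fold changes below 0, with a median of -0.59; Col1a1 stood at -0.31 (SE 0.32) and Col3a1 at -0.11 (SE 0.42) in the authors' deposited table. Of 17 basement membrane genes Col4a3 (-2.09) and Col4a4 (-1.71) fell and all 17 lay below 0, and of 5 collagen VI genes 0 passed in edgeR (1 at an unadjusted p under 0.05). Among 18 genes of collagen processing, the crosslinking enzyme Lox fell by 1.64, Adamts2 by 0.87 and Pcolce2 by 1.18.

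Among signalling genes of the stroma a minority of each list fell, where 3.78% of all genes fell. Hypoxia-responsive genes went in both directions. Of 35 genes of TGF-beta, BMP and activin signalling 6 fell and 0 rose, among them the activin binders Fstl3 (-2.29) and Fst (-1.11), the receptor Bmpr1a (-0.97) and the ligand Tgfb3 (-1.02) in the authors' deposited table; the call of Tgfbr3 (-0.72) was lost without the other-tissue genes (adjusted p = 0.0503, from the deposited edgeR p-values). Wnt signalling gave 5 of 35 lower, Ccn5, Sfrp5 and the receptors Fzd1 (-0.91), Fzd4 (-1.09) and Fzd2 (-1.34), with a median of -0.65; Fzd2 lost its call in the same alternative (adjusted p = 0.053). Of 12 genes of the IGF system, Igfbp3 (-1.17) and Ghr fell, and Igf1 stood at -0.09. Angiogenesis had 3 of 20 lower, Angpt1 (-1.10), its receptor Tek (-0.91) and Nrp1 (-0.76). Of 13 hypoxia-responsive genes, Pdk1, Hk2 and Egln3 (1.57) rose and Ndrg1 (-1.07) fell in the authors' deposited table.

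Markers of stromal cell types lay below 0 with few calls. Of 20 adipose progenitor genes 17 were below 0 and 1 passed, Anxa3 (-0.99), with a median of -0.53; Pdgfra, the receptor that marks these cells, stood at -0.81 (adjusted p = 0.057, edgeR). All 15 endothelial markers were below 0, with a median of -0.36, and Tek alone passed. Of 12 mural and smooth muscle markers, smooth muscle actin (Acta2) fell by 2.33 (adjusted p = 5.9e-09, edgeR) and Mcam by 1.13, and Cspg4, a pericyte proteoglycan, rose by 1.08. All 10 Schwann cell markers were below 0 and 2 fell, among them Prx (-1.04). Lymphatic endothelial markers (7) and mesothelial markers (2) had 0 calls in edgeR, with 2 and 0 at an unadjusted p under 0.05.

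Complement genes fell in 7 of 17 members with 0 higher and a median of -0.70. The terminal components C6 and C7 stood at -2.10 and -1.77, C4b at -1.36, the regulator Serping1 at -1.10, and the anaphylatoxin receptors C3ar1 and C5ar1 at -1.26 and -1.13 in the authors' deposited table. The liver exceeded iWAT by 3.6 for C6; for C7, C3ar1 and C5ar1 it was lower than iWAT, by 5.8, 2.6 and 3.9 on the log2 scale, and for C4b and Serping1 about level, at -0.2 and 0.6. C3 itself stood at 0.22.

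Macrophage genes were lower in part. Of 24 macrophage markers 4 fell and 0 rose, with a median of -0.65: the scavenger receptor Cd163 (-1.61), Retnla (-1.42), the mannose receptor Mrc1 (-1.04), all known from resident or alternatively activated macrophages, and the Fc receptor Fcgr3 (-0.95) in the authors' deposited table. Adgre1, which encodes the F4/80 antigen, stood at -0.84 (adjusted p = 0.17, edgeR) and C1qa at -0.32. Of 12 markers of lipid-associated macrophages 4 fell, with a median of -1.02: Gpnmb (-1.81), Spp1, Mmp12 and the cathepsin Ctsk (-0.996); Trem2, which defines these cells, stood at -1.69 with an SE of 0.70 (adjusted p = 0.13, edgeR). Spp1 and Mmp12 are also on the matrix lists. Of 30 chemokines and receptors 5 fell: Ccr2 (-1.33), the monocyte receptor, the chemokines Ccl9 (-1.46), Ccl6 (-1.36) and Ccl11 (-0.84), and the decoy receptor Ackr2 (-1.38). Ccr2 was also the only 1 of 6 monocyte and neutrophil markers to pass.

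Lymphocyte markers lay above 0 together but with wide errors. All 18 T cell markers had positive fold changes, with a median of 1.26 and a median SE of 0.97, and all 16 B cell markers too, with a median of 1.18 and a median SE of 1.00. None passed in edgeR (1 T cell and 0 B cell markers had an unadjusted p under 0.05); Cd3e stood at 1.63 in the authors' deposited table. Plasma cell markers gave 1 of 11, Ighg2c. Of 9 mast cell markers, Kit (0.97) rose and the low-abundance Ms4a2 (-2.002) fell. Of these 9, 8 lay below 0, with a median of -0.40, and 4 had an unadjusted p under 0.05 in edgeR. Dendritic cell (11) and NK and innate lymphoid (11) markers had 0 calls in edgeR, with 1 and 3 at an unadjusted p under 0.05, and the 1 eosinophil marker measured did not pass. No call was made in edgeR for MHC class II (10 genes; 1 at an unadjusted p under 0.05), MHC class I (15; 0), interferon-stimulated genes (27; 5), cytokines (26; 4) or innate sensors (20; 4). The medians of the last 3 lists were 0.06, 0.11 and -0.01.

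**Figure D5:**
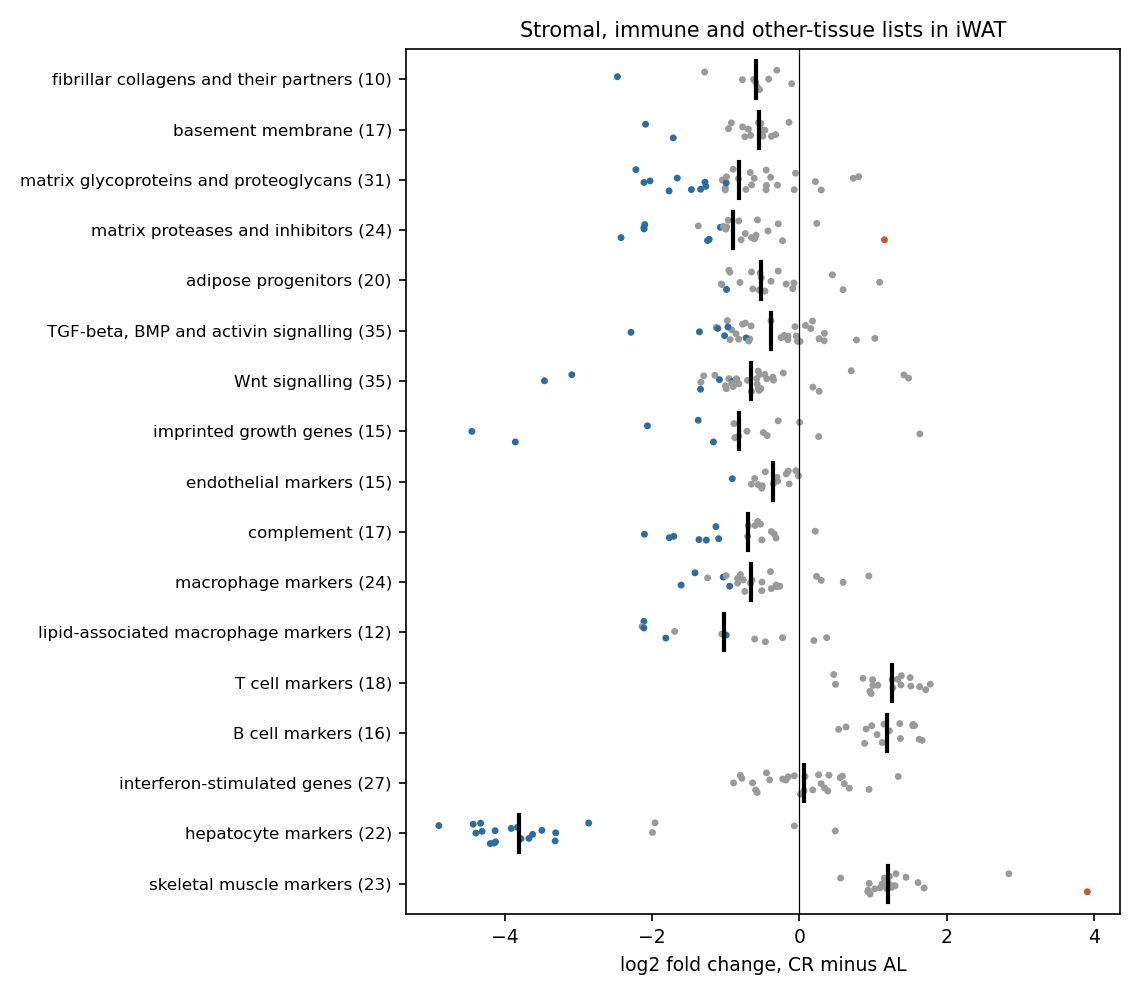
Each row is a gene list with its number of measured members; points are members at their log2 fold change (CR minus AL, x axis), red or blue where they passed the authors' FDR and grey where they did not, and black bars are the medians. Hepatocyte markers lie farthest to the left, with a median of -3.80, while the T cell, B cell and muscle markers lie above 0, almost all of them grey.

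Clock genes rose in a larger share than the 3.52% over all genes, and the stress lists gave fewer calls. Of 19 clock genes 5 rose, among them Bhlhe40 (1.97), Nfil3 (1.33), Cry1 (1.30) and Bhlhe41 (0.99), and the repressor Nr1d1 (-1.16) fell, whereas the output gene Dbp stood at 0.26 and the activators Arntl and Clock at -0.08 and -0.64 in the authors' deposited table. Of 12 glucocorticoid-responsive genes Hsd11b1, which regenerates active glucocorticoid, rose by 1.06, and Mt2 (-1.72) and Errfi1 (-1.04) fell; Fkbp5 stood at -0.34. In the endoplasmic reticulum list 2 of 21 fell, Dnajc3 (-0.74) and Hsp90b1 (-0.81), and the antioxidant list gave 3 of 22 higher, Gsta4 (1.01), Sod2 (0.82) and Prdx3 (0.80). Heat shock (13 genes), lysosome (22) and cell cycle (30) lists had 0 calls in edgeR, with 0, 2 and 4 members at an unadjusted p under 0.05. Of 8 senescence-associated genes 2 fell, among them Igfbp3. Of the remaining marker lists of other tissues, red blood cell (5 genes), neuronal (2) and mammary epithelial (4) markers had 0 calls in edgeR (0, 0 and 2 at an unadjusted p under 0.05), and of 4 skin markers Sbsn fell (-1.13), a call lost without the other-tissue genes (adjusted p = 0.054).

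At the level of transcripts, 838 of 34231 (2.45%) passed in the authors' deposited table of isoforms, 485 higher and 353 lower. They belong to 709 genes, of which 554 also passed as genes, 153 were measured as genes and did not pass, and 2 were not in the gene table; 563 genes that passed had no transcript that did. The median SE of a transcript was 0.58, against 0.32 for a gene. Transcripts of 4 genes passed in both directions, 2 of them with both at a log2 mean CPM of at least 1. For Pacsin2, a membrane-bending protein of endocytosis and caveolae, transcript 202 rose by 1.44 (adjusted p = 0.023, edgeR) and transcript 203 fell by 1.18 (adjusted p = 0.0010, edgeR), while the gene stood at -0.23. For the complex I subunit Ndufv1, transcript 201 rose by 1.09 as did the gene (1.07), and the fold of transcript 207, -11.2, comes from a group close to 0 reads and is no measure of size. RSEM divides reads shared by isoforms by estimate, so these transcript values are uncertain where isoforms overlap.

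Set beside TR, the fat programs of CR were not shown to differ. Of 971 genes that passed against AL, are neither liver-enriched nor muscle markers and are listed also in the authors' deposited table for CR against TR, 0 passed there in edgeR (28 at an unadjusted p under 0.05), and 955 had a CR minus TR value smaller than 1 in size. Both comparisons share the CR libraries. Ucp1 stood at 1.18 in CR minus TR, Mest at 0.43, Peg3 at 0.72 and Acss2 at -0.25. A p that misses the threshold does not show that the diets act alike: the median approximate SE of the CR minus TR value over these genes was 0.30.

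Set beside the liver of the same diets, 4 of 12 genes picked for this test differed in their CR minus AL value. The 12 were picked with earlier results of these data known. The share of all genes that passed this test is not given here, so the count describes these 12 only. The difference, iWAT minus liver, was tested with approximate standard errors and adjusted over all genes in both tables. By the animal numbers in the labels, every CR mouse and most AL mice gave both tissues. The test did not use this pairing and took the tissues as uncorrelated. The difference was 2.40 for the elongase Elovl6 (SE 0.51; 4.02 in iWAT and 1.61 in liver; adjusted p = 3.5e-04), 2.498 for Cidec (SE 0.50; -0.15 and -2.65; adjusted p = 8.5e-05), 2.75 for Dbp (SE 0.51; 0.26 and -2.49; adjusted p = 1.6e-05) and 1.45 for Nr1d1 (SE 0.46; -1.16 and -2.61; adjusted p = 0.034). With a correlation of -0.3 between tissues Nr1d1 did not pass (adjusted p = 0.10), and with 0.3 Pdk4 (adjusted p = 0.024) and Igf1 (adjusted p = 0.043) passed. For Fasn, Acly, Pdk4, Cpt1a, Col3a1, Igf1, Cry1 and Fkbp5 the difference did not pass, with values from -1.12 (Pdk4; 0.22 in iWAT and 1.35 in liver; adjusted p = 0.089) to 1.44 (Acly; 2.78 and 1.34; adjusted p = 0.17).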

How the data were processed

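RNA was total RNA taken with Trizol from frozen tissue, and libraries were made with an Illumina TruSeq kit, per the labels' protocols. The submitters' processing notes name bcl2fastq 2.20, STAR 2.5.3a, RSEM (no version) and the build GRCm38.p5. The group comparisons are the authors' edgeR generalized linear models, per the file headers; the edgeR version, the filter and the normalization method are each not given in the sources used here. Of the 12 tables of comparisons, 5 were read. The log2 columns are the authors' fitted log2 fold change and log2 mean CPM, the score column is their likelihood-ratio statistic, and the p-value columns are their unadjusted p-value and FDR, all per the file headers. No values per library were used, so no model was refitted and depth is unknown.

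The authors' p-value equals the chi-square tail of their statistic to within 3.0e-11. The approximate SE is the size of the fold change over the root of the statistic, and 95% intervals rest on it. Tests are 2-sided. The steps were tested on simulated data (Python 3.11.15, pandas 2.3.3, scipy 1.17.1). Gene positions came from GENCODE M21, where 15285 of 15295 identifiers matched, and promoters from RefSeq (GRCm38.p6), where 11427 genes had a window.

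The comparison, the 74 gene lists, the named genes and the tests were chosen with earlier results of these data known. Named genes are the 12 highest and 12 lowest past the FDR (log2 mean CPM of at least 2, without predicted, liver-enriched and muscle genes), per list the members of smallest adjusted p (4 at most), all called members of lists with 5 or fewer, and 24 genes given whatever their values. Other members, above all those given as not past the threshold, were named after their values were seen. Some genes that this rule names are not reported here. List counts are descriptions without a set test. Alternatives were a threshold of 0.01 or 0.10, an added minimum of 1 in size, a log2 mean CPM of at least 1, centring on the median, leaving out other-tissue genes, differences of 3 and 7 for liver-enriched genes, and correlations of 0.3 and -0.3 between tissues.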

Additional observations from a re-analysis of the deposited data

Results flagged for a closer look

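For 4 genes, the CR minus AL effect differed between iWAT and liver by a test of the difference itself, adjusted over all genes measured in both tissues. The differences, iWAT minus liver, were 2.40 for Elovl6, 2.498 for Cidec, 1.45 for Nr1d1 and 2.75 for Dbp. Elovl6 rose in both tissues and more in iWAT. Cidec and Dbp stood near 0 in iWAT (-0.15 and 0.26) and at -2.65 and -2.49 in liver. Nr1d1 was lower in both tissues, and less so in iWAT. The test took the tissues as uncorrelated, though every CR mouse and most AL mice gave both. With a correlation of -0.3 Nr1d1 did not pass that test (adjusted p = 0.10), and the hour of sampling is not stated in the labels used here.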

How the results depend on the processing

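At an FDR of 0.01, 336 genes were higher and 253 lower in CR, and 286 transcripts were higher and 164 lower; at 0.10, 887 genes were lower, and with a change of at least 1 in size 359 genes were higher. The other gene and transcript counts under these thresholds, a log2 mean CPM of at least 1 and centring on the median (0.02), and the gene counts without other-tissue genes, stayed within 1.5 times the reported ones. Of the counts per gene list, 36 moved beyond 1.5 times and 28 did not at 0.01; 14 moved with the minimum size of 1 and 7 at 0.10. Of the listed genes, 100 lost their call at 0.01 and 235 kept their side of the threshold. The difference between tissues passed for Pdk4 (-1.12, adjusted p = 0.024) and Igf1 (-0.71, adjusted p = 0.043) with a correlation of 0.3 between tissues, and Nr1d1 (1.45) did not pass with -0.3 (adjusted p = 0.10). Of 1064 genes called in CR minus AL and listed for CR minus TR, 79 were called in both, beside 0.918% of 14699 genes over all in CR minus TR. Of the 79, 78 were liver-enriched and 1 was the muscle marker Tnnt1. Both comparisons share the CR libraries. With an FDR of 0.10 in CR minus TR the count was 86, an alternative chosen after seeing the data. No paired analysis was possible because values per library were not used, and for the same reason no library could be left out. Lowly abundant genes, with a median SE of 0.66 at a log2 mean CPM under 0, limit what could be detected.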

Other observations

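Further groups, assembled after the values were seen and therefore only described, held more of the same tissue's changes. Of 21 genes of glycogen metabolism 5 rose and 0 fell, with a median of 0.56 beside 0.02 over all genes: the glycogen synthase gene best known from liver, Gys2 (2.49, adjusted p = 8.9e-12 in edgeR), the branching enzyme Gbe1 (1.03), the phosphorylase Pygl (1.68) and the glycogen-targeting subunits of protein phosphatase 1, Ppp1r3b (3.21) and Ppp1r3c (1.52), in the authors' deposited table. None of these 5 is liver-enriched; the liver exceeded iWAT by 2.7 for Gys2 and by 0.7 for Ppp1r3b. Coenzyme Q synthesis had 3 of 13 members higher, Coq7 (1.08), Coq8a (1.01) and Coq9 (1.25), and all had fold changes of at least 0.34. Mitochondrial ribosomal proteins gave 6 of 78 higher with a median of 0.49, cytosolic ribosomal proteins 0 of 86 with a median of 0.20 and proteasome subunits 0 of 37 with a median of 0.33 in edgeR.

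Of 20 genes of the Hippo pathway 5 fell and 0 rose: the coactivator gene Wwtr1 (-1.03), its DNA-binding partners Tead1 (-1.15) and Tead4 (-1.44), Amotl2 (-0.91) and Vgll3 (-2.48), in the authors' deposited table. Of 9 caveola genes, Cavin2 (-0.95) and Cavin3 (-1.46) fell and Cav1, the main coat protein, stood at -0.15. Among 14 aldehyde dehydrogenases 5 rose, Aldh1a7 (1.36), Aldh1l1 (1.15), Aldh3b2 (1.30), Aldh4a1 (1.37) and Aldh9a1 (1.11), and Aldh1a1, which makes retinoic acid, fell by 1.69; the liver exceeded iWAT by 4.0 for Aldh1a1.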
